A study of Rattus norvegicus with 24 samples.

Results

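The genes described here belong to the cellular response to low oxygen: Hif1a, Epas1, Vhl, Egln1, Egln3, Vegfa, Adm, Bnip3, Slc2a1 and Pdk1. They were chosen by name for their roles in the pathway, and were looked up by rat Entrez identifier in RNA sequencing tables of the left kidney that list 17334 identifiers. Of the 10 genes, 9 were found, and the expression of Egln1 was not analysed here. All 9 passed the filter on low counts, which left 12778 genes for testing.

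In cells with enough oxygen, the prolyl hydroxylases encoded by Egln1 and Egln3 mark the HIF alpha subunits, and the ubiquitin ligase subunit encoded by Vhl then directs them to degradation. When oxygen is short, the alpha subunits HIF-1alpha (Hif1a) and HIF-2alpha (Epas1) persist, pair with ARNT and switch on genes for blood vessel growth, glucose uptake, glycolysis and mitochondrial turnover. In the kidney HIF-1alpha is known mainly from tubular epithelium and HIF-2alpha from endothelial and interstitial cells. Because the alpha subunits are controlled largely at the protein level, their mRNA levels are not a measure of pathway activity.

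All 24 animals were male PKD/Mhm (Cy/+) rats, a strain with slowly progressive cystic kidneys that carries a missense change in Anks6, and all were 8 months old. The 4 groups held 6 animals each: Ctrl without treatment, CoCM, ipABCB5 and ivABCB5. Treatment was given once a month for 6 months. The cell groups received human skin-derived ABCB5+ stromal cells injected into the abdominal cavity (intraperitoneal, i.p.) or into a vein (intravenous, i.v.). The CoCM group received the supernatant of ABCB5+ cells kept together with stimulated macrophages derived from THP-1, a human monocytic line, and the sources disagree on whether its route was i.v. or i.p. No healthy rats without the Cy allele were analysed here, so Ctrl is the untreated diseased kidney. Control animals carried the numbers 1 to 24 and treated animals 26 to 43, so that anything that followed this order cannot be told apart from treatment.

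The libraries held between 9304630 and 14125457 estimated counts in total. No member had fewer than 130 counts in any library, the lowest being Pdk1, and the highest value was 6132 for Vegfa. In 4 animals (CoCM 39, ipABCB5 38, ivABCB5 36 and ivABCB5 37) the injury marker Spp1, which encodes osteopontin, lay between 326 and 566 TPM against 6141 to 13260 TPM in the other 20. The summed TPM of 7 proximal tubule markers was 3128 to 4494 in these 4 and 729 to 3195 in the other 20. Where stated, member values below are also given without them. Fold changes of other pathway genes are given for all animals only. In whole kidney tissue, fewer cells of a type and less RNA per cell cannot be told apart.

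None of the 9 genes passed the threshold after Benjamini-Hochberg adjustment with the edgeR quasi-likelihood test in any comparison between groups, nor with DESeq2. The smallest values came from Slc2a1, which encodes the glucose transporter GLUT1 and was higher in the estimate in all 3 treated groups than in Ctrl, and from Epas1, which was lower in CoCM. The highest Bnip3 values were those of the 4 animals named above, which come from the 3 treated groups. All 4 exceeded the other 20 for 10% of all genes tested. Fold changes below are on the log2 scale with their standard error (SE), and CPM are counts scaled to a common library total with TMM factors.

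HIF binds the short core A/GCGTG, so the reference promoters of the genes were searched for ACGTG and GCGTG on both strands. The window ran from 250 bases before to 50 bases after the start of each gene in RefSeq, build GRCr8. Of 10 genes, 5 held a match in a window: Slc2a1, Bnip3, Pdk1, Hif1a and Egln1. Among the 11 windows of these genes (Vegfa has 2), 45.5% held a match, beside 41.6% of all 33469 windows, where ACGTG occurred in 19.3% and GCGTG in 29.7%, some windows holding both. A match is a description of the letters, not a site, and the share among these genes was near that of all promoters. The following stretches are shown because they belong to the genes whose values are described most fully, and capitals mark the match. In the Slc2a1 window the ACGTG match lay 51 bases upstream of the start (chr5:138002459-138002487, plus strand) and a GCGTG match, written here from its other strand, lay 76 bases upstream (chr5:138002434-138002462, plus strand). In the Bnip3 window (chr1:203155044-203155073, minus strand) the match at 99 bases upstream is a palindrome that holds ACGTG on both strands. GCGTG matches on the other strand, at 108 and 90 bases upstream, flank this palindrome and are left in lower case. The Hif1a window held the same palindrome at 229 bases upstream (chr6:98359657-98359686, plus strand). The Pdk1 stretch held GCGTG 54 bases upstream (chr3:77113448-77113476, plus strand).
Slc2a1, ACGTG: gtcccgccccggACGTGgtcctcaggccc
Slc2a1, GCGTG on the other strand: tcccgccagaacCACGCcccttggagtcc
Bnip3: gcgcacgcgccgCACGTGccacacgcgccc
Hif1a: cacacagacgagCACGTGagctgggcagct
Pdk1: cctcctgcggggGCGTGgctccagcgagg
No match in a window was found for Epas1, Vhl, Egln3, Vegfa or Adm, which says only that these letters are not in this window.

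Levels were compared between genes only as TPM, which is scaled to transcript length. In untreated cystic kidneys the most abundant of the genes was Vegfa, the endothelial growth factor, at 166 ± 58.2 TPM (SD, n = 6). Bnip3, which encodes a receptor for the removal of mitochondria, followed at 152 ± 28.2 TPM. The transcription factors stood next, with Epas1 at 72.6 ± 16.3 TPM and Hif1a at 57.2 ± 7.74 TPM. Vhl (42.03 ± 4.51 TPM), Slc2a1 (40.6 ± 5.80 TPM) and Adm (34.6 ± 6.07 TPM), which encodes the vasodilator peptide adrenomedullin, lay close together. Pdk1, which encodes a kinase that holds pyruvate out of the citrate cycle, was at 15.2 ± 4.77 TPM and Egln3 at 12.9 ± 1.20 TPM. In this order the ranges of neighbours overlapped except at 2 steps, between Bnip3 and Epas1 and between Adm and Pdk1. By mean the genes thus fell into 3 tiers in Ctrl, with Vegfa and Bnip3 on top, Epas1 to Adm between and Pdk1 and Egln3 lowest. The top and middle tiers were not separate in range, as Vegfa (87.8 to 248 TPM) overlapped Epas1 (54.0 to 93.5 TPM).

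**Figure D1:**
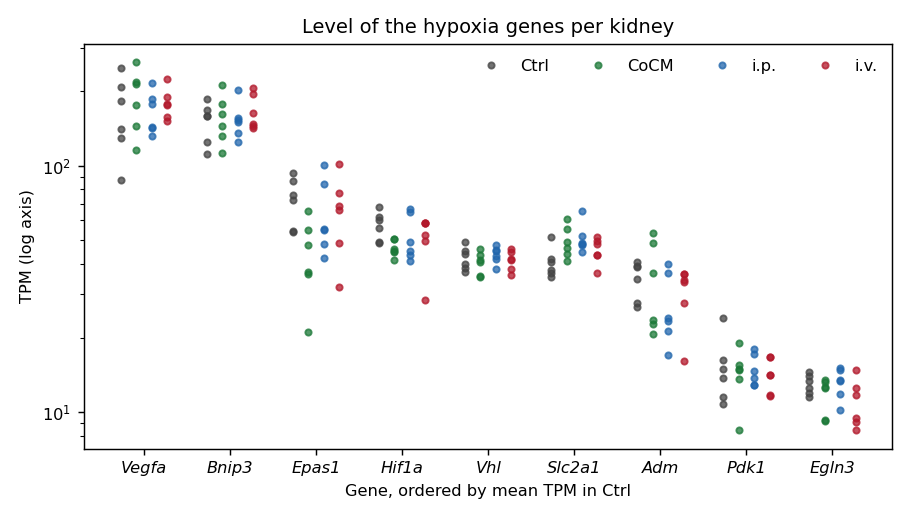
Level of the 9 genes in TPM (log axis) in each of the 24 kidneys, with genes ordered by their mean in Ctrl and 1 point per animal coloured by group. Vegfa and Bnip3 lie highest and Pdk1 and Egln3 lowest by mean in every group.

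Of the members that sense oxygen or tag HIF for degradation, Vhl and Egln3 were measured. Vhl was at 82.5 ± 4.07 CPM in Ctrl, 85.7 ± 8.80 CPM in CoCM, 89.4 ± 8.32 CPM in ipABCB5 and 86.1 ± 7.27 CPM in ivABCB5. Its log2 fold changes against Ctrl ran from 0.05 to 0.11, but those of CoCM and ivABCB5 lay below 0 when TPM were fitted (-0.06 and -0.03). Egln3, the hydroxylase whose mRNA is itself a HIF target, was at 25.7 ± 3.42 CPM in Ctrl, 24.8 ± 3.75 CPM in CoCM, 27.1 ± 3.87 CPM in ipABCB5 and 22.8 ± 3.39 CPM in ivABCB5. The groups overlapped for both genes.

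The 2 HIF alpha subunits were lower in CoCM in the estimate. Hif1a was at 150 ± 12.7 CPM in Ctrl, 131 ± 8.94 CPM in CoCM, 140 ± 17.1 CPM in ipABCB5 and 140 ± 20.3 CPM in ivABCB5. Epas1 ranged from 110 to 177 CPM in Ctrl (median 129), from 45.04 to 131 CPM in CoCM (median 84.9), from 90.6 to 173 CPM in ipABCB5 (median 119) and from 81.6 to 194 CPM in ivABCB5 (median 131). In CoCM, 4 of 6 animals lay below every Ctrl animal and the 2 highest lay inside the Ctrl range.

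The targets differed in how far animals of 1 group spread. Vegfa was at 339 ± 95.6 CPM in Ctrl, 414 ± 140 CPM in CoCM, 362 ± 100 CPM in ipABCB5 and 397 ± 59.4 CPM in ivABCB5. Adm was at 30.8 ± 5.65 CPM in Ctrl, 32.8 ± 13.0 CPM in CoCM, 25.4 ± 9.97 CPM in ipABCB5 and 28.4 ± 5.17 CPM in ivABCB5. In CoCM the Adm values lay apart, with 3 animals between 19.8 and 23.6 CPM and 3 between 38.2 and 49.6 CPM. Bnip3 was at 162 ± 29.8 CPM in Ctrl, 182 ± 48.6 CPM in CoCM, 174 ± 50.5 CPM in ipABCB5 and 193 ± 58.4 CPM in ivABCB5. Pdk1 was at 15.5 ± 3.61 CPM in Ctrl, 16.1 ± 4.29 CPM in CoCM, 16.3 ± 3.55 CPM in ipABCB5 and 15.6 ± 2.68 CPM in ivABCB5, so that its group means lay within less than 1 SD of each other.

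Slc2a1 ranged from 67.3 to 82.3 CPM in Ctrl (median 70.9), from 82.0 to 128 CPM in CoCM (median 89.4), from 71.7 to 144 CPM in ipABCB5 (median 92.3) and from 65.4 to 103 CPM in ivABCB5 (median 84.2). Ctrl was the tightest group, with an SD of 5.72 CPM beside 17.6 CPM in CoCM, 25.4 CPM in ipABCB5 and 14.5 CPM in ivABCB5. CoCM and Ctrl overlapped only in that 2 CoCM animals lay just under the highest Ctrl animal.

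**Figure D2:**
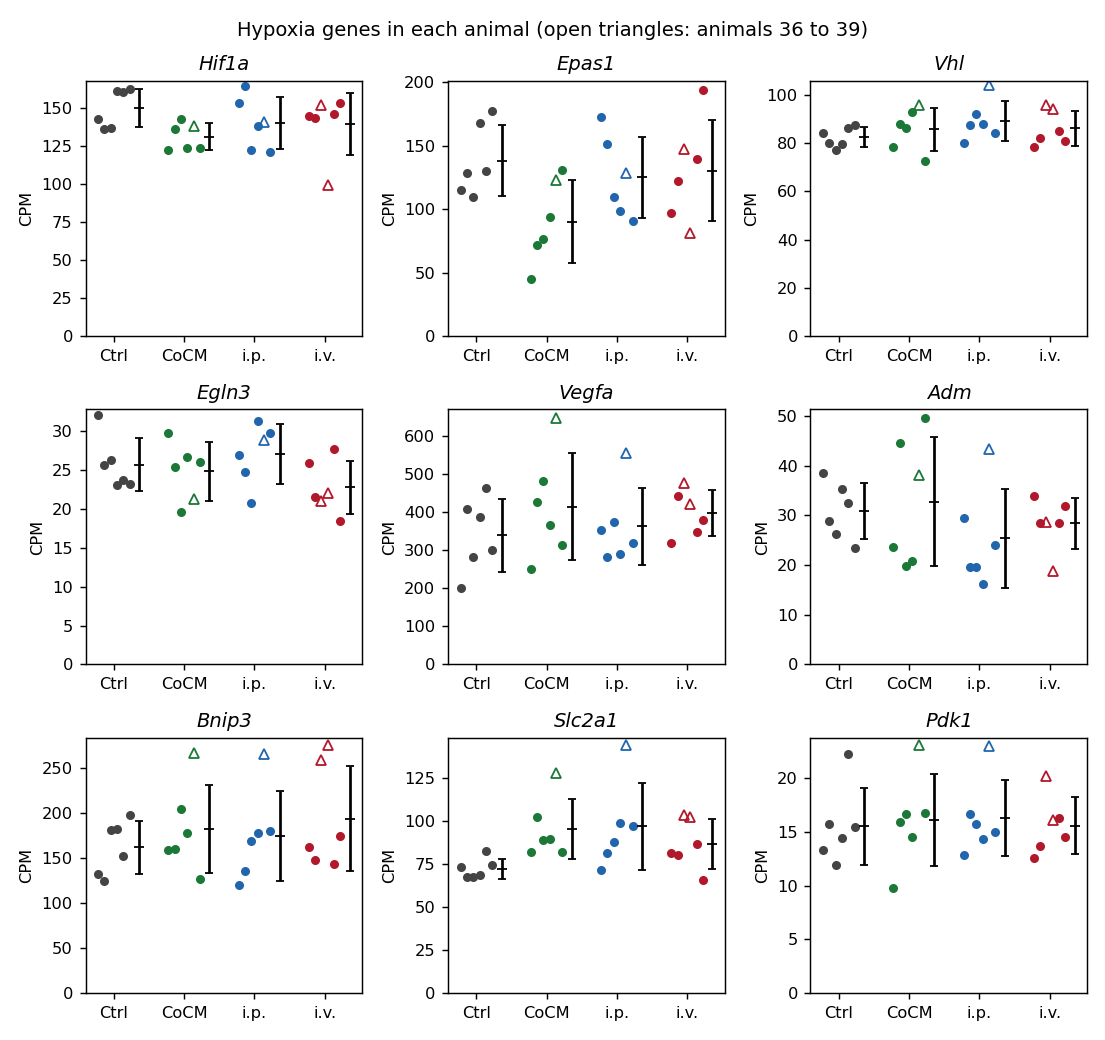
CPM of the 9 genes in each animal by group, with the mean and SD of the 6 animals beside the points and animals 36 to 39 as open triangles. For Slc2a1, 4 of 6 CoCM and 4 of 6 ipABCB5 animals lie above every Ctrl animal, and for Bnip3 the 4 open triangles lie above all other points.

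The comparison of CoCM with Ctrl asks about the supernatant given without living cells. Slc2a1 was higher by 0.40 ± 0.14 (SE) on the log2 scale in the edgeR quasi-likelihood test, with a Benjamini-Hochberg adjusted p of 0.342 over all genes and a p under 0.05 before adjustment. All 6 CoCM animals lay above the Ctrl mean and 4 above the Ctrl range, and the exact permutation test, two-sided, gave p = 0.00649. Without the 4 animals that stood apart the difference was 0.29 ± 0.09, with an edgeR adjusted p of 0.220. The difference therefore stayed on the same side of 0 and of the threshold in both fits. The mean summed TPM of 5 fibroblast and pericyte markers was 852 in Ctrl, 514 in CoCM, 589 in ipABCB5 and 552 in ivABCB5. That of 5 macrophage markers was 382, 270, 275 and 266 in the same order. The part of these markers in the Slc2a1 values was not tested.

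Epas1 was lower in CoCM by -0.62 ± 0.23 (SE) on the log2 scale in the edgeR quasi-likelihood test, with an adjusted p of 0.358 and a p under 0.05 before adjustment. All 6 CoCM animals lay below the Ctrl mean, and the exact permutation test, two-sided, gave p = 0.0260. Without the 4 animals the edgeR estimate was -0.74 ± 0.24, with an adjusted p of 0.221. With sample quality weights in limma voom it was -0.81 and passed with an adjusted p of 0.0451, in a fit that called 183 genes in all. This was the only fit of those tried in which a member was called. Over the other alternatives the Epas1 estimate lay between -0.79 and -0.62, none of which passed. Beside this, the summed TPM of 5 endothelial markers, all 5 of them listed and none at 0, ranged from 263 to 310 in Ctrl and from 131 to 295 in CoCM, and that of 5 fibroblast and pericyte markers from 390 to 1245 in Ctrl and from 55.4 to 1021 in CoCM. Their part in the Epas1 value was not tested.

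Against the background in the edgeR test, 0 of 9 members were called in CoCM after adjustment, where 1 of 12778 genes (0.00783%) was. Before adjustment, 2 of 9 members had p under 0.05, where 11.9% of all genes tested did. The median log2 fold change of the 9 genes was 0.06, beside 0.01 over all genes tested, with 6 estimates above 0 and 3 below. When TPM were fitted, 3 of those 6 (Vhl, Adm and Pdk1) lay below 0 as well, on a scale on which the median of all genes was -0.10 in CoCM against Ctrl.

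The comparison of ipABCB5 with Ctrl asks about cells placed in the abdominal cavity. It shares the Ctrl animals with the other comparisons against Ctrl, so the values are given side by side and not as independent evidence. Slc2a1 was higher by 0.42 ± 0.14 (SE) on the log2 scale in the edgeR quasi-likelihood test, with an adjusted p of 0.978 and a p under 0.05 before adjustment. It ranked 12th of 12778 genes by p-value in this comparison. Of 6 ipABCB5 animals 4 lay above the Ctrl range and 5 above the Ctrl mean, and the exact permutation test, two-sided, gave p = 0.0152. The highest value, 144 CPM, was that of animal 38, 1 of the 4 that stood apart. Without these animals the edgeR difference was 0.28 ± 0.09, with an adjusted p of 0.9999 and a p under 0.05 before adjustment, a value smaller by over 1.5 times. After adjustment 0 of 9 members were called, beside 0% of all genes tested, and before adjustment 1 of 9 had p under 0.05, beside 1.77%. The other 8 estimates lay between -0.28 for Adm and 0.11 for Vhl. For the exact permutation test, two-sided, Adm differed by -0.34 in log2 CPM (p = 0.184). On omission of the 4 animals it differed by -0.51 (p = 0.0303 in the same exact test). The median of the 9 was 0.07, beside 0.00 over all genes.

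The comparison of ivABCB5 with Ctrl asks about cells given into the blood. No member had p under 0.05, where 5.78% of all genes did, and after adjustment 0 of 9 were called beside 0% of all genes. The smallest p-values were those of Slc2a1 and Egln3. Slc2a1 was at 0.26 ± 0.14 (SE) on the log2 scale in the edgeR quasi-likelihood test (adjusted p = 0.673), and its exact permutation test, two-sided, gave p = 0.0519. Without the 4 animals, 2 of which are in this group, it was at 0.12 ± 0.10. Egln3 was at -0.17 ± 0.12 in the same test (adjusted p = 0.682), with 4 of 6 ivABCB5 animals below the Ctrl range of 23.03 to 32.1 CPM. On omission of the animals that stood apart, 2 of the 4 left in ivABCB5 lay below that range. The Egln3 difference in log2 CPM was then -0.14 (exact permutation test, two-sided, p = 0.343). The median of the 9 was 0.01, as over all genes.

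The comparison of ipABCB5 with ivABCB5 asks whether the route of the same cells mattered. Egln3 had the smallest p-value. It ranged from 20.7 to 31.4 CPM after i.p. injection (median 27.9) and from 18.5 to 27.7 CPM after i.v. injection (median 21.8), so the groups overlapped, with 3 i.p. animals above the i.v. range. The difference was 0.25 ± 0.12 (SE) on the log2 scale in the edgeR quasi-likelihood test (adjusted p = 0.9999), and the exact permutation test, two-sided, gave p = 0.0758. On omission of the 4 animals that stood apart, Egln3 differed by 0.19 in log2 CPM (exact test p = 0.270). Adm differed by -0.22 with all animals (exact test p = 0.385) and by -0.52 on their omission (exact test p = 0.0476). Slc2a1 was at 0.16 ± 0.14 in the same edgeR test (adjusted p = 0.9999). Before adjustment 0 of 9 members had p under 0.05, beside 2.14% of all genes, and after adjustment 0 of 9 were called, beside 0%.

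Across all 4 groups at once, Slc2a1 was the only member with p under 0.05 in the edgeR F-test (adjusted p = 0.817). This is 1 of 9 members, beside 4.71% of all genes, and after adjustment 0 of 9 were called, beside 0%. Epas1 was next, also with an adjusted p of 0.817 in that edgeR test.

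**Figure D3:**
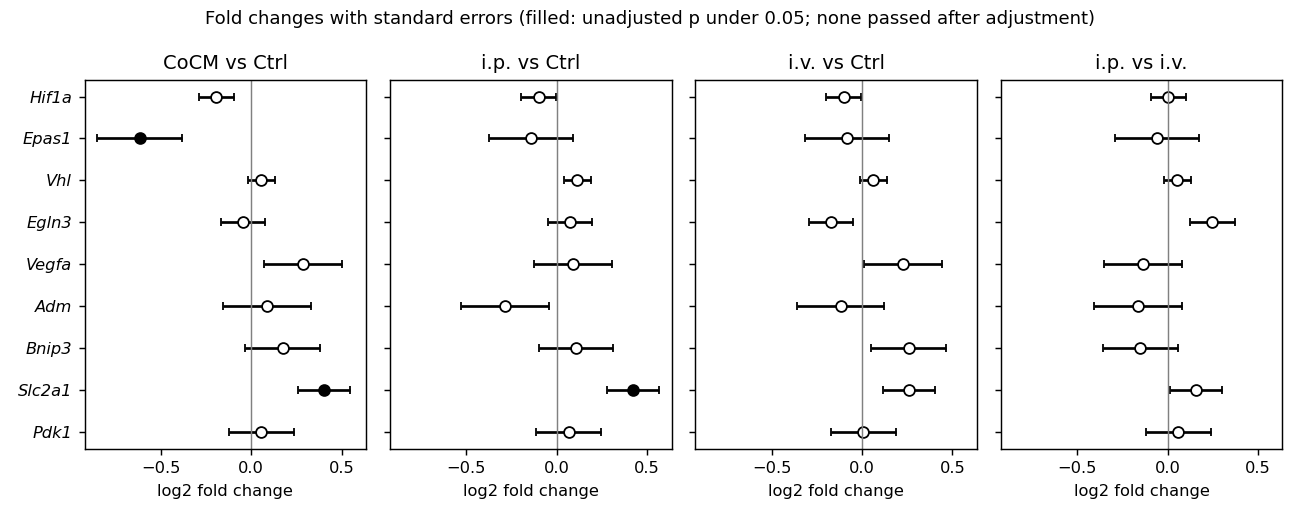
Log2 fold change of the 9 genes with its standard error in the 4 comparisons, with filled points where the edgeR p before adjustment was under 0.05. Slc2a1 and Epas1 are filled for CoCM and Slc2a1 for i.p. cells, and no gene passed after adjustment.

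Of 83 other genes of the pathway listed by role, 78 were tested, and none was called after adjustment in the edgeR test in any of the 4 comparisons. Before adjustment, 4 were higher and 9 lower in CoCM than in Ctrl at p under 0.05, 1 higher and 0 lower in ipABCB5, and 3 higher and 2 lower in ivABCB5. Between routes, 2 had their higher mean after i.p. and 2 after i.v. injection. Over all 12778 genes the counts were 761 higher and 762 lower in CoCM (11.9% in all), 161 and 65 in ipABCB5 (1.77%), 567 and 171 in ivABCB5 (5.78%) and 88 and 186 between routes (2.14%), and nothing particular to the list is read from these counts. By role, the genes with p under 0.05 in CoCM included 4 of 12 receptors and partners of the secreted targets, all lower, and 0 of 18 glycolysis genes, beside 11.9% of all genes in either direction. Of the 12 other HIF subunits and regulators 2 were higher and 1 lower, and of the 28 remaining targets 2 were higher and 4 lower. Of 8 genes of pyruvate dehydrogenase and its regulators, 0 had such a p. The median log2 difference between CoCM and Ctrl was -0.34 over the receptors and partners, 0.15 over the other HIF subunits and regulators, 0.09 over the glycolysis genes and -0.05 over the remaining targets.

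The smallest p-values among the other pathway genes in CoCM were those of Higd1a, Flt1, Nrp1 and Calcrl. Higd1a, a mitochondrial protein gene induced by HIF-1, averaged 20.7 ± 2.48 CPM in Ctrl and 28.3 ± 4.42 CPM after CoCM (log2 difference 0.45 ± 0.14 SE). The other 3 are receptors for the products of members. Flt1, a VEGF receptor, averaged 107 ± 19.0 CPM in Ctrl and 79.5 ± 17.0 CPM after CoCM (-0.43 ± 0.15), and its co-receptor Nrp1 averaged 66.1 ± 13.2 CPM and 40.4 ± 11.3 CPM (-0.71 ± 0.24). Calcrl, the adrenomedullin receptor, averaged 12.7 ± 2.97 CPM in Ctrl and 7.01 ± 1.97 CPM after CoCM (-0.86 ± 0.30). None passed in edgeR, with adjusted p between 0.307 and 0.327. The estimates of their ligands were 0.29 ± 0.22 for Vegfa and 0.09 ± 0.24 for Adm, the latter -0.09 when TPM were fitted. The mean of the endothelial marker sum given above was also lower in CoCM, at 223 TPM beside 287 TPM in Ctrl, and its part in the receptor values was not tested.

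In ipABCB5 the other pathway genes with the smallest p-values were Higd1a (0.33 ± 0.14), Siah2 (0.20 ± 0.10), a ubiquitin ligase for prolyl hydroxylases, Pkm (0.24 ± 0.13), the pyruvate kinase, and the lymphatic growth factor Vegfc (-0.48 ± 0.26), all as log2 differences from Ctrl with SE. In ivABCB5 they were Cited2 (0.40 ± 0.13), which encodes a HIF-induced competitor of HIF for its co-activators, Adm2 (0.99 ± 0.35), a peptide related to adrenomedullin, Siah2 (0.27 ± 0.10) and the cyclin gene Ccng2 (-0.15 ± 0.07). Cited2 was at 268 to 347 CPM in the 4 animals that stood apart and at 187 to 228 CPM in the other 20, and Adm2 at 65.4 to 128 CPM and 22.4 to 53.0 CPM, and 2 of the 4 animals are in ivABCB5. Between routes they were the glycolysis genes Ldha (0.18 ± 0.08) and Pfkp (0.21 ± 0.10), higher after i.p. injection in the estimate, and the mTOR inhibitor gene Ddit4 (-0.45 ± 0.21) and Cited2 (-0.26 ± 0.13), lower. None of these passed after adjustment in edgeR.

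The 4 animals that stood apart were singled out by measured values, so what follows is a description without a test. Bnip3 lay between 258 and 276 CPM in these 4 and between 120 and 205 CPM in the other 20, a ratio of means of 1.66. Slc2a1 lay between 102.4 and 144 CPM, against 65.4 to 102.2 CPM. Vhl lay between 94.2 and 104 CPM, against 72.5 to 93.1 CPM. For these 3 of 9 members all 4 animals exceeded every other animal, beside 10% of all genes tested, and for 0 of 9 all 4 lay below, beside 14.2%. Vegfa and Pdk1 were above the range in 2 of the 4 animals each, CoCM 39 and ipABCB5 38, and inside it in both ivABCB5 animals. Hif1a and Epas1 were not above it in any, and Hif1a of animal 37 was below.

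The scale mattered for this description. In TPM, the median gene was lower by -0.22 on the log2 scale in the 4 animals than in the other 20, whereas in TMM-scaled CPM it differed by 0.02. Bnip3 was still above the range in all 4 in TPM (195 to 213 against 111 to 187 TPM), Slc2a1 in 2 of 4 and Vhl in none, with 36.1 to 42.9 TPM against 35.1 to 48.8 TPM. Vegfa was above it in 1 of 4 and Pdk1 in none in TPM. Egln3, inside the range in all 4 in CPM, lay below it in 3 of 4 in TPM, and Adm in 1 of 4.

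Of the 78 other pathway genes, all 4 animals lay above the others for 15 and below for 11, beside 10% and 14.2% of all genes tested, so that the count below was near the background. The 15 included 6 of 18 glycolysis genes (Pgk1, Eno1, Gapdh, Gpi, Tpi1 and Pgam1) and 4 of 8 genes of pyruvate dehydrogenase and its regulators (Pdk2, Pdha1, Pdhb and Dlat). These counts are in CPM and were not made in TPM. Some gaps were narrow, as for Gpi (lowest of the 4 718.4 CPM, highest of the others 717.5 CPM) and Gapdh (3422 and 3356 CPM). Pgk1, for example, was at 730 to 954 CPM against 340 to 619 CPM, and Pdk2, a kinase with the same substrate as Pdk1, at 602 to 800 CPM against 260 to 465 CPM. Among those below were Hk2, the inducible hexokinase, at 4.18 to 5.33 CPM against 8.54 to 21.9 CPM, Angptl4 at 1.70 to 2.47 CPM against 10.3 to 32.7 CPM, and Edn1, the endothelin gene, at 4.37 to 8.36 CPM against 10.95 to 23.2 CPM. Among the 28 targets outside glycolysis, 2 lay above and 6 below, which is read against the same shares of all genes. The proximal tubule markers named above lay higher in the same animals, with a narrow overlap. Marker sums of fibroblasts and pericytes, macrophages, inner medulla and injured tubule lay lower without overlap. The fibroblast and pericyte sum was 55.4 to 197 TPM in these 4 and 310 to 1245 TPM in the other 20. The macrophage sum was 34.3 to 92.4 TPM and 197 to 514 TPM. The part of any of these markers in the gene values was not tested.

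How the members varied together was examined over the other 20 animals, after removal of each group's mean from log2 CPM, in 36 pairs. Egln3 and Vegfa were inversely related, with Pearson's r = -0.67 (permutation p = 0.00079, adjusted over the 36 pairs 0.0284) and Spearman's rho = -0.67 (permutation p = 0.00199, adjusted 0.0716). Without the 2 animals farthest from the median of Egln3, r was -0.60. This was the only pair that passed by r, and no pair passed by rho. Hif1a and Epas1 had r = 0.49 (permutation p = 0.0352, adjusted 0.253) and rho = 0.58 (permutation p = 0.0132, adjusted 0.159). The remaining pairs lay between -0.57 for Adm with Bnip3 and 0.61 for Vegfa with Pdk1.

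**Figure D4:**
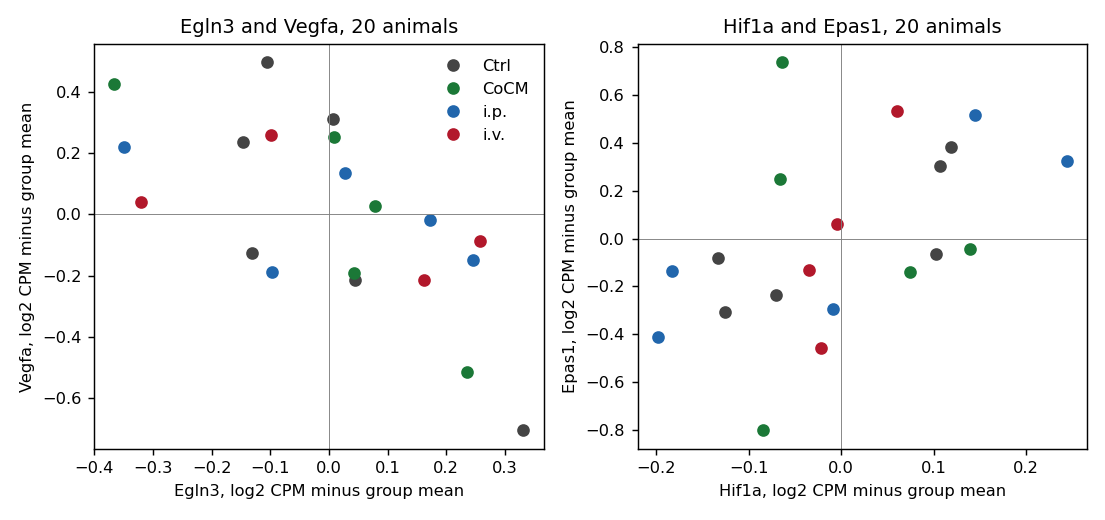
Log2 CPM minus the group mean for Egln3 against Vegfa and for Hif1a against Epas1 in the 20 animals, 1 point per animal coloured by group. Vegfa declines as Egln3 increases (r = -0.67), and the Hif1a and Epas1 points scatter more widely (r = 0.49).

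The genes were also set beside summed markers of 13 cell types or states in the same 20 animals, a comparison chosen after the values were seen. Of 117 relations, 19 passed by permutation of r after adjustment, 11 of them positive and 8 negative, and 3 passed by both r and rho. Those 3 were Bnip3 with proximal tubule markers (r = 0.72, rho = 0.73, permutation adjusted p = 0.0261 and 0.0343, r = 0.69 without the 2 farthest animals), Bnip3 with immediate early genes (r = -0.77, rho = -0.76, permutation adjusted p = 0.0261 and 0.0343, r = -0.66 without the 2 farthest) and Pdk1 with distal convoluted tubule markers (r = 0.81, rho = 0.79, permutation adjusted p = 0.0261 and 0.0328, r = 0.70 without the 2 farthest). Some marker lists were shared between members: Vegfa and Pdk1 both passed by r with distal convoluted tubule and intercalated cell markers, and Bnip3 and Vhl with thick ascending limb markers. Adm passed with the last of these in the opposite direction (r = -0.63, permutation adjusted p = 0.0304). Bnip3 and Egln3 passed with opposite signs for proximal tubule and inner medulla markers, as did Bnip3 and Adm for immediate early genes. Vhl and Slc2a1 both passed inversely with fibroblast and macrophage markers. By r alone, Vegfa was positively related to markers of podocytes (r = 0.70, permutation adjusted p = 0.0304) and of the distal convoluted tubule (r = 0.74, permutation adjusted p = 0.0304), and Egln3 to markers of the inner medulla (r = 0.62, permutation adjusted p = 0.0372) and inversely to those of the proximal tubule (r = -0.67, permutation adjusted p = 0.0304). Their rho did not pass, with adjusted p from 0.0545 to 0.0909. Of the inner medulla list, Slc14a2 did not pass the filter on low counts. Of the distal convoluted tubule list, Pvalb did not pass it and Trpm6 was not listed. Slc2a1 was inversely related to fibroblast (r = -0.61, permutation adjusted p = 0.0372) and macrophage markers (r = -0.62, permutation adjusted p = 0.0418), again by r alone. Epas1 with endothelial markers had r = 0.57 and did not pass (permutation adjusted p = 0.169). How much of the Egln3 and Vegfa relation follows the share of kidney regions in each piece of tissue was not tested.

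For each member, the 2 genes with the most similar profile over these 20 animals were found among 11706 genes by Pearson's r of the group-centred log2 CPM, as a description. The closest match was that of Bnip3 with Suclg2 (r = 0.97), a mitochondrial enzyme gene of the citrate cycle, and with Nit2 (r = 0.96). Epas1 was most like Tgfbr3 and Tgfbr2 (r = 0.93 and 0.92), which encode TGF-beta receptors. Egln3 was most like Lypd2 and Trpv6 (r = 0.90 and 0.89), the latter an epithelial calcium channel. Pdk1 was closest to Slc9a4 and Ermp1 (r = 0.93 and 0.91) and Vegfa to Camta2 and Nrdc (r = 0.92 and 0.89). For Slc2a1 the nearest were Tspan12 and Me3 (r = 0.90 for both), for Adm Tspan15 and Ccn1 (r = 0.88 for both), for Hif1a Pum2 and Aff4 (r = 0.85 and 0.84), and for Vhl Msantd4 and Birc6 (r = 0.81 and 0.80). No member was among the 2 nearest genes of another member.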

How the data were processed

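RNA from the left kidney was read on a BGISEQ-500 instrument. The authors deposited estimated counts, not normalized, and TPM for each animal. The submitters' processing notes name Trim Galore 0.6.4, kallisto 0.4.6 and the build rn6, and the methods section lists DESeq2 and an annotation package for human genes, whose role is not given. Symbols came from a RefSeq table of GRCr8, which held 17179 of the 17334 identifiers; promoter windows came from RefSeq of the same build, and protein sequences were not used here.

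Estimated counts were rounded, filtered with filterByExpr and scaled by TMM. A mean per group was fitted to all 24 libraries in edgeR 4.0.16 (R 4.3.3) with quasi-likelihood F-tests and Benjamini-Hochberg adjustment at 0.05, after the procedure was tested on simulated data. DESeq2 1.42.0, limma 3.58.1 (voom with quality weights; log2(TPM + 1) and log2(TPM + 0.1)), median-ratio scaling, other count filters (none; at least 10 counts in every library), only the groups compared, thinned counts and omission of animals were alternatives. TPM deposited by the authors were used for levels between genes. The exact test of single genes used log2 CPM with a prior count of 2 over 924 divisions of 12 animals, for which the smallest p is 0.00216. Permutations of correlations were drawn 100000 times within groups.

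Animals carry no shared replicate numbers, so samples were not paired. P-values set a difference or a relation against the variation between these animals. The common coefficient of biological variation was 0.299. Members and lists were chosen with earlier results of these data known. In each comparison, members with an unadjusted p under 0.05, or otherwise the 2 with the smallest p, were described in full, with up to 4 other pathway genes. Ranges of the 4 animals over pathway genes and relations with marker sums were added after the values were seen.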

Additional observations from a re-analysis of the deposited data

Results flagged for a closer look

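Within groups of 6, single animals lay far from the rest in 7 of 40 pairs of a measure and a group, by the gap to the nearest animal relative to the range of that group. Chance alone flags about 1 in 20 such pairs, or 2.0 of 40. In ivABCB5, animal 37 had 98.98 CPM of Hif1a, with the other 5 between 143.1 and 152.9 CPM, and 18.87 CPM of Adm, with the others between 28.42 and 33.89 CPM. In ipABCB5, animal 38 had 553.2 CPM of Vegfa, with the others between 282.2 and 374.1 CPM, and 144.3 CPM of Slc2a1, with the others between 71.71 and 98.84 CPM. In Ctrl, animal 1 had 32.12 CPM of Egln3, with the others between 23.03 and 26.3 CPM. Animal 23 had 22.29 CPM of Pdk1, with the others between 11.9 and 15.79 CPM, and its library was the smallest of the group at 10405757 estimated counts, with the others between 13320840 and 14125457. The Slc2a1 and Pdk1 values passed the limit narrowly, with gaps of 0.6261 and 0.6252 of the range.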

How the results depend on the processing

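No paired analysis was possible because the animals of different groups share no replicate number. Over 10 alternatives in each of 4 comparisons, the fold changes of the 9 genes kept their direction and their side of the threshold in 328 cases, passed it newly in 1 (Epas1 in CoCM, above) and turned sign in 31, none of which passed before or after; the cause was not tested. With voom quality weights 1 member was called in CoCM against Ctrl. Over all genes, that comparison had 1 call, 0 with only the groups compared, with either TPM fit, with thinned counts or without the 4 animals, 78 with DESeq2 and 183 with voom quality weights; DESeq2 gave 1 in ivABCB5 against Ctrl and 1 between routes. Leaving out 1 animal gave 0 to 31 calls there: 31 without Ctrl 23, 0 without Ctrl 12, 18, 22 or 24 or CoCM 26, 27 or 39, and 1 otherwise. Sign changes were as follows on the log2 scale. With median-ratio factors, DESeq2 and thinned counts, Hif1a between routes was -0.00219, -0.0021 and -7.42e-05. With no filter and with the 10-count filter, Pdk1 in ivABCB5 was -0.00679 and -0.015. With voom weights, CoCM gave Egln3 0.0073 and Adm -0.14, ipABCB5 gave Egln3 -0.010, ivABCB5 gave Bnip3 -0.070 and Pdk1 -0.00818, and the routes gave Hif1a -0.13 and Bnip3 0.082. With log2(TPM + 1), CoCM gave Vhl -0.056, Adm -0.094 and Pdk1 -0.063, and ivABCB5 gave Vhl -0.025 and Pdk1 -0.063. With log2(TPM + 0.1) these were -0.058, -0.098, -0.067, -0.026 and -0.065. Without the 4 animals, CoCM gave Pdk1 -0.085, ipABCB5 gave Vegfa -0.068, Bnip3 -0.049 and Pdk1 -0.053, ivABCB5 gave Vhl -0.019, Bnip3 -0.051 and Pdk1 -0.12, and the routes gave Hif1a -0.060 and Bnip3 0.0017. With 1 animal left out, 25 of 432 values turned sign. These were Egln3 (-0.107 to 0.0271), Pdk1 (-0.0723 to 0.169) and Adm (-0.0686 to 0.199) in CoCM, Vegfa (-0.069 to 0.183), Bnip3 (-0.05 to 0.17) and Pdk1 (-0.06 to 0.18) in ipABCB5, Pdk1 (-0.08 to 0.12) and Epas1 (-0.232 to 0.00974) in ivABCB5, and Hif1a (-0.0766 to 0.0473), Epas1 (-0.171 to 0.0913) and Pdk1 (-0.05 to 0.15) between routes. Slc2a1 stayed above 0 in every case, at 0.30 to 0.44 in CoCM and 0.27 to 0.47 in ipABCB5, and Epas1 in CoCM at -0.76 to -0.48. With 6 animals a group and SE of 0.07 to 0.24, differences smaller than the SE could not be resolved. Differences well above their SE did not pass in edgeR either. Examples are Slc2a1 in ipABCB5 (0.42 ± 0.14, edgeR adjusted p = 0.978) and Epas1 in CoCM (-0.62 ± 0.23, edgeR adjusted p = 0.358).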
